A study of Homo sapiens with 7 samples.

Results

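The genes examined were 10 that encode nuclear speckle proteins, most of them rich in arginine and serine: SON, SRRM1, SRRM2, PNN, ACIN1, RBM25, RBM39, LUC7L3, BCLAF1 and THRAP3. They were picked by name, with earlier results of these data known. All 10 were found among the 19978 genes of the deposited table and among the 14863 that passed the filter on low counts. Polyadenylated RNA was sequenced from HEK-293, an established human embryonic kidney cell line, after 48 h in 1 of 3 media. Control cells (2 samples) were kept at pH 7.4 and acidosis cells (3 samples) at pH 6.6. SRPIN340 cells (2 samples) were kept at pH 7.4 with 10 µM of this inhibitor of the SR protein kinases. By the methods, all 3 media held the vehicle DMSO at the same concentration. The study set prolonged acidification beside inhibition of the SR protein kinases and compared their effects on transcription and splicing. The methods describe the samples as biological repeats, so that the p-values below measure the spread between those repeats.

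Nuclear speckles are compartments between the chromosomes where splicing factors are stored, modified and released to nearby transcription sites. Many of their proteins carry stretches in which arginine (R) and serine (S) alternate. These stretches are phosphorylated by the SRPK and CLK kinases, and their charge sets how the proteins bind RNA and one another. SON and SRRM2 form the core on which speckles assemble, and the other genes encode partners that tie speckles to splice site recognition, to the exon junction complex, or to RNA export and stability.

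The reference coding sequences showed how unevenly the arginine-serine repeat is spread over the set. Each adjacent RS or SR pair was counted in the protein translated from the GENCODE release 44 canonical transcript. SRRM2 encoded 331 such pairs in 2752 residues, and 0.0051% of the 19513 canonical coding sequences compared held as many. SON encoded 93 pairs in 2426 residues. BCLAF1 and THRAP3 encoded 62 pairs each, SRRM1 52, ACIN1 49, LUC7L3 36, PNN 29 and RBM39 27. RBM25 encoded only 7 pairs in 843 residues, a count that 23.9% of all coding sequences reached, so that by this measure it did not match its description as an RS-domain gene. Its densest stretch holds arginine next to aspartate and glutamate instead. The windows of 40 codons with the most pairs are shown for the core genes SON and SRRM2, for PNN, which changed most in acidosis, for the paralogs BCLAF1 and THRAP3, whose ratio changed, and for RBM25. They are coding sequence of the GRCh38 reference on the strand of the gene, and capitals mark codons that take part in an RS or SR pair. The SON window lies in 1 exon at chr21:33555091-33555210 (plus strand) and holds 18 pairs. The SRRM2 window lies in 1 exon at chr16:2762425-2762544 (plus strand) with 18 pairs, and the PNN window in 1 exon at chr14:39181702-39181821 (plus strand) with 9. The other windows are joined from 2 exons with an intron between them, within chr6:136278734-136279839 (minus strand, 21 pairs) for BCLAF1, chr1:36282603-36286389 (plus strand, 25 pairs) for THRAP3 and chr14:73103372-73105871 (plus strand, 6 pairs) for RBM25.
SON: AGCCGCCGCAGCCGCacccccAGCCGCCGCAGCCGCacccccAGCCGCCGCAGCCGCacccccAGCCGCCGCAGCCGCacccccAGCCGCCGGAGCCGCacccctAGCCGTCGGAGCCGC
SRRM2: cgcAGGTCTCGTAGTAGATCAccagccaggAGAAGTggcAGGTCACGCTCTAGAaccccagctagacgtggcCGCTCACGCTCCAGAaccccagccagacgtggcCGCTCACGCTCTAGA
PNN: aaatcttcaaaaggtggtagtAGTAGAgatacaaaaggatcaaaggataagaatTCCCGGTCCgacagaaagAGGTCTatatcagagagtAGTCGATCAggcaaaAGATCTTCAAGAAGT
BCLAF1: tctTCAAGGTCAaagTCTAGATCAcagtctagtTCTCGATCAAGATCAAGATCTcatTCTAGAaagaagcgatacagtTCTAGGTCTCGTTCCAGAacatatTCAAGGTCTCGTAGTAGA
THRAP3: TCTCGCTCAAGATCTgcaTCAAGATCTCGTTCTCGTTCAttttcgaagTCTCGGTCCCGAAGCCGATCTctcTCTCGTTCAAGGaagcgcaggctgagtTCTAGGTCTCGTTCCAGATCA
RBM25: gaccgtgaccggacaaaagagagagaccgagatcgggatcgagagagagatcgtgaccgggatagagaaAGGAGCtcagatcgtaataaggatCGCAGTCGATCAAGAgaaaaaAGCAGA

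**Figure D1:**
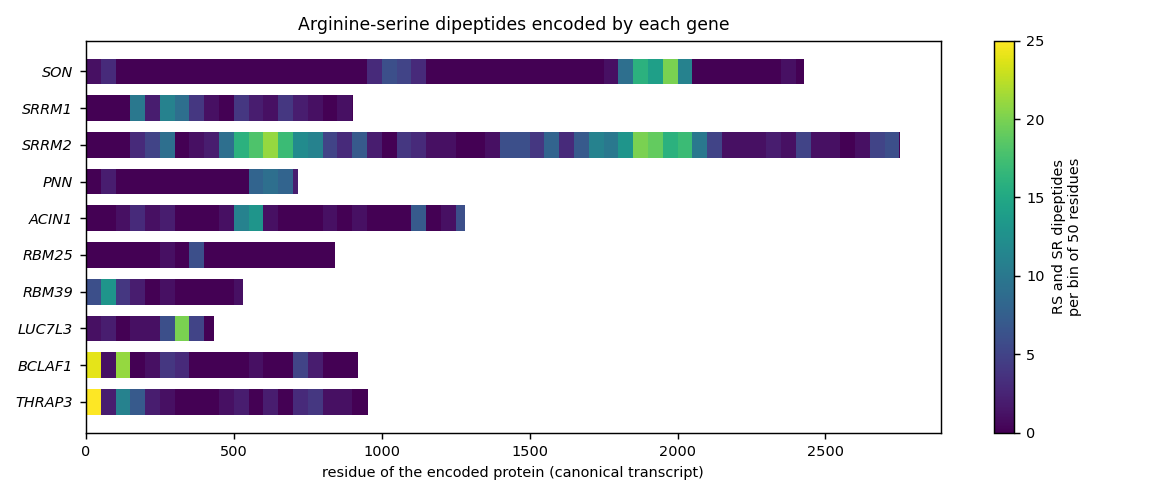
Each bar is the protein encoded by the canonical transcript, with length in residues on the x axis and colour giving the number of RS and SR pairs in each bin of 50 residues. The pairs of SRRM2 are spread over many bins, those of SON lie mostly in 1 block near the end, those of BCLAF1 and THRAP3 near the start, and RBM25 has at most 6 in any bin.

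The SON window repeats the same block, with a threonine-proline pair between blocks, whereas PNN holds its pairs as scattered short runs. BCLAF1 and THRAP3 both begin with a dense repeat, and over 843 aligned positions of the encoded proteins 49.6% were identical. A count of pairs is a property of the reference and says nothing about phosphorylation in these cells.

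The libraries held 13615816 to 24110460 estimated counts. Acidosis libraries differed in make-up from the other groups: their 100 most counted genes took 24.1% to 24.8% of counts, against 15.2% to 15.4% elsewhere, and the 13 mitochondrially encoded genes took 0.307% to 0.346%, against 2.38% to 2.89%. All pairs of replicates differed by more than sampling noise. The HEK-293 markers PAX2, LHX1, NEFL, NEFM, KRT8, KRT18 and VIM all passed the filter. Their summed level was 1411 to 1476 CPM at pH 7.4 and 3500 to 3516 in acidosis. VIM made up most of this sum, with a mean of 867 CPM in control and 2714 in acidosis. In acidosis 4 of the markers rose under TMM scaling (VIM, log2 fold change 1.65) and 2 fell (PAX2, -1.93). The directions for VIM and PAX2 were the same under every scaling tried. With library totals only, 2 of the 7 rose and 3 fell. Of markers of other cell types, CD3E, ALB and HBB did not pass the filter, PTPRC and PECAM1 stayed under 1 CPM in every library, and COL1A1, COL3A1 and EPCAM were measured at 1.38 to 266 CPM. The summed level of these 5 tested markers was 170 to 202 CPM at pH 7.4 and 326 to 328 in acidosis. The epithelial gene EPCAM made up most of this sum, with a mean of 144 CPM in control and 262 in acidosis. In acidosis 3 of the 5 rose and 1 fell under TMM, and 2 rose and 1 fell under library totals only. The part of these shifts in the results below was not tested. In bulk RNA, fewer cells of a kind and less RNA per cell cannot be told apart.

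Levels are given as CPM, counts set relative to the library total after that total was scaled by TMM, a method that sets the typical gene to no change. A gene rose or fell where the Benjamini-Hochberg adjusted p of edgeR's quasi-likelihood test over all 14863 genes was under 0.05. In acidosis the scaling decides much of the split: 48.8% of the genes past this limit were higher under TMM, and 22.8% when libraries were scaled by their totals only, which moved the median over all tested genes from -0.05 to -0.63 on the log2 scale. Values under library totals only are therefore given beside the changes of the speckle scaffold genes against control.

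Acidosis moved most of the speckle scaffold genes, in both directions. Against control, 6 of the 10 rose, 1 fell and 3 did not pass the limit. Over all genes 32.5% rose and 34.2% fell, so that a change as such was common and the count of members is set beside that background. The median log2 fold change was 0.45 for the 10 genes and -0.05 for all genes tested. Adding a fold limit of 1 on the log2 scale left 1 member higher (PNN), against 14.4% of all genes, and 0 lower, against 19.1%. BCLAF1 missed that limit at -0.96 by edgeR and -0.94 by DESeq2, and passed it under upper quartile scaling (-1.12) and library totals only (-1.53). With library totals only, 2 of the 10 were higher and 5 lower, beside 16.2% and 55.0% of all genes, and with upper quartile scaling 6 were higher and 3 lower, beside 27.3% and 40%. Of the 10, 7 lay above the median of all genes, a position that scaling hardly moves because it shifts all genes alike.

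**Figure D2:**
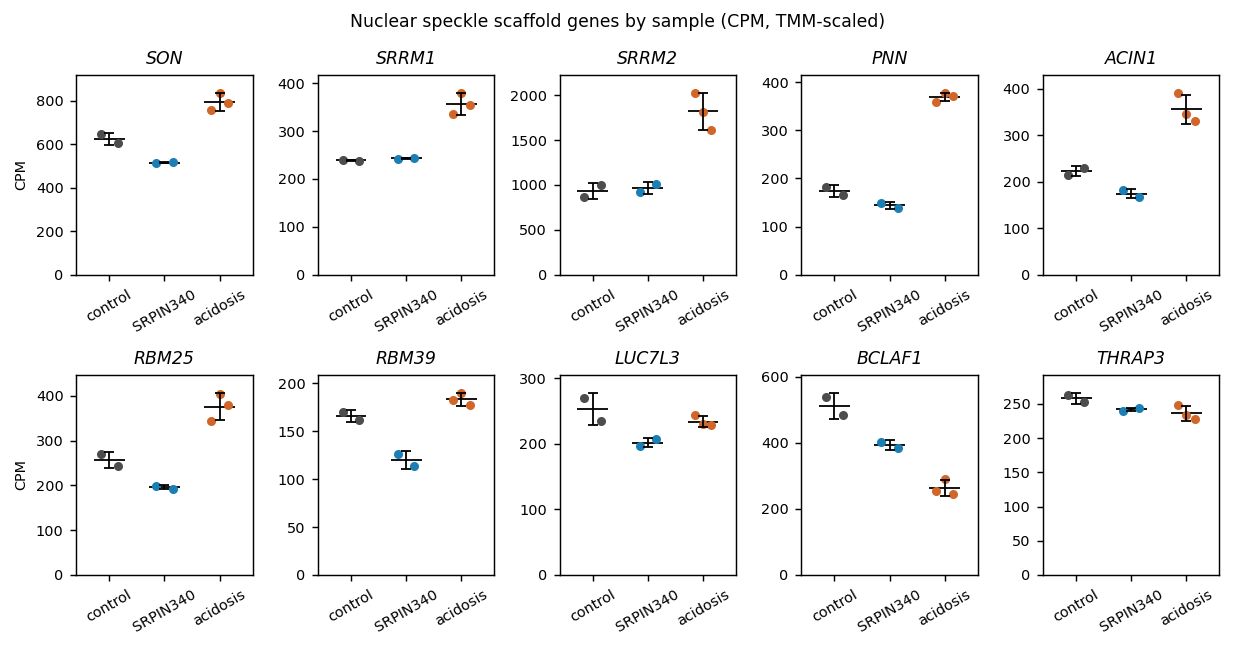
CPM (TMM-scaled) of each gene on the y axis, from 0, by group on the x axis; points are samples, horizontal lines are group means and bars are 1 SD. SRRM2 lies between 1617 and 2027 in acidosis and between 871 and 1011 in the other samples, while BCLAF1 lies between 246 and 290 in acidosis and at 384 or more elsewhere.

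SON, an RNA-binding protein of the speckle core, was measured at 646 and 607 CPM in control, 514 and 517 with SRPIN340, and 757, 838 and 793 in acidosis. The 3 acidosis samples were the highest and the SRPIN340 samples the lowest, with no overlap between groups. The mean was 627 ± 27.8 CPM (SD, n = 2) in control and 796 ± 40.3 (SD, n = 3) in acidosis, a log2 fold change of 0.34 (SE 0.06, edgeR adjusted p = 7.81e-04). That change reversed to -0.23 under library totals only, where SON passed the limit as lower. SON (chr21:33543038-33577481, plus strand, 12 exons) overlaps GART and DONSON on the opposite strand. The sources do not state whether strand was used in quantification, so shared reads cannot be told apart.

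SRRM2, the large repeat-rich partner of SON in the speckle core, stood at 871 and 996 CPM in control, 920 and 1011 with SRPIN340, and 2027, 1813 and 1617 in acidosis. Control and SRPIN340 samples overlapped, and every acidosis sample was well above them. The mean was 933 ± 88.4 CPM (SD, n = 2) in control and 1819 ± 205 (SD, n = 3) in acidosis, 1.95-fold higher, with a log2 fold change of 0.96 (95% interval 0.74 to 1.19, edgeR adjusted p = 1.80e-05) under TMM and 0.39 under library totals only. SRRM2 (chr16:2752626-2772538, plus strand, 15 exons) overlaps ELOB on the opposite strand.

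SRRM1, a splicing coactivator that joins SRRM2 on exon-bound complexes, was at 239 and 238 CPM in control, 242 and 244 with SRPIN340, and 336, 380 and 354 in acidosis. The SRPIN340 samples lay just above control, and the acidosis samples were clear of both. The log2 fold change in acidosis was 0.58 (SE 0.07, edgeR adjusted p = 4.23e-05), and it went to 0.00 under library totals only.

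PNN and ACIN1 are alternative scaffolds for RNPS1 and SAP18: ACIN1 with them makes the ASAP complex and PNN the PSAP complex, both of which sit on the exon junction complex. PNN was at 182 and 165 CPM in control, 149 and 138 with SRPIN340, and 360, 377 and 371 in acidosis. No gene of the set changed more: the mean was 174 ± 12.1 CPM (SD, n = 2) in control and 369 ± 8.91 (SD, n = 3) in acidosis, 2.13-fold higher, with a log2 fold change of 1.09 (95% interval 0.93 to 1.25, edgeR adjusted p = 8.28e-07) under TMM and 0.52 under library totals only. ACIN1 was at 215 and 230 CPM in control, 182 and 167 with SRPIN340, and 392, 346 and 331 in acidosis. Its log2 fold change in acidosis was 0.68 (SE 0.09, edgeR adjusted p = 6.74e-05), and 0.11, no longer past the limit, under library totals only. PNN (chr14:39175183-39183220, plus strand, 9 exons) overlaps the antisense gene PNN-AS1, and ACIN1 (chr14:23058564-23095614, minus strand, 19 exons) overlaps C14orf119 on the opposite strand.

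Their shared partners rose as well under TMM. RNPS1, which bridges to the exon junction complex, went from 247 ± 4.71 CPM (SD, n = 2) in control to 602 ± 25.9 (SD, n = 3) in acidosis, a log2 fold change of 1.29 (edgeR adjusted p = 1.86e-07) and 0.71 under library totals only. SAP18 had a log2 fold change of 0.43 under TMM, which reversed to -0.15 under library totals only. Of the 7 partner genes (RNPS1, SAP18, EIF4A3, RBM8A, MAGOH, MAGOHB and CASC3), 5 rose and 1 fell under TMM, and 1 rose and 2 fell under library totals only. CASC3, a core junction subunit, had a log2 fold change of 0.71 under TMM and 0.13 under library totals only, where it no longer passed (adjusted p = 0.261), and MAGOHB, a copy of MAGOH, had -0.89 and -1.46. Since RNPS1 rose more than either scaffold, the count ratio of ACIN1 to RNPS1 within a library went from 0.899 in control to 0.590 in acidosis. That of PNN to RNPS1 went from 0.701 to 0.614, a log2 shift of -0.19 beside an SD of 0.13 between the control samples. Such ratios are taken inside each library and do not depend on its scaling.

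RBM25 and LUC7L3 act at the 5' splice site with the U1 particle, LUC7L3 being a human relative of the yeast U1 protein Luc7. RBM25 was at 270 and 243 CPM in control, 200 and 193 with SRPIN340, and 344, 404 and 380 in acidosis. The groups did not overlap, and the log2 fold change in acidosis was 0.55 (SE 0.08, edgeR adjusted p = 2.21e-04) under TMM but reversed to -0.02 under library totals only. LUC7L3 was at 270 and 235 CPM in control, 197 and 206 with SRPIN340, and 243, 229 and 228 in acidosis. Acidosis and control samples overlapped, and the log2 fold change was -0.11 (95% interval -0.28 to 0.06, edgeR adjusted p = 0.214). It passed the limit as lower under upper quartile scaling (-0.28), library totals only (-0.69) and without control sample 2 (-0.23, adjusted p = 0.0412). RBM25 overlaps the antisense gene RBM25-AS1.

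The U1 genes beside them split. Of LUC7L, LUC7L2, SNRNP70, SNRPA, SNRPC and PRPF39, 2 rose and 2 fell under TMM, with a median of -0.06, and 2 rose and 4 fell under library totals only. SNRPA, a core U1 protein, rose from 91.0 ± 5.63 CPM (SD, n = 2) to 291 ± 15.1 (SD, n = 3), with log2 fold changes of 1.68 under TMM and 1.10 under library totals only. SNRNP70, another core U1 protein, fell from 227 ± 2.32 CPM (SD, n = 2) to 131 ± 10.6 (SD, n = 3), at -0.80 and -1.37. PRPF39, a U1-associated protein, was at 0.92 and 0.35, and LUC7L2 at -0.44 and -1.02, so that these 4 kept their directions.

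RBM39, a splicing coactivator of the U2AF family, was at 170 and 161 CPM in control, 127 and 114 with SRPIN340, and 183, 190 and 177 in acidosis. The acidosis samples lay above control without overlap, but the log2 fold change of 0.15 (95% interval -0.02 to 0.31, edgeR adjusted p = 0.108) did not pass the limit, and under library totals only it was -0.43 and did. Of its 4 relatives in 3' splice site recognition, 2 rose under TMM and under library totals only. U2AF2, the large U2AF subunit, went from 217 ± 13.1 CPM (SD, n = 2) to 548 ± 67.0 (SD, n = 3), with log2 fold changes of 1.34 under TMM and 0.76 under library totals only. PUF60 rose by 0.91 and 0.34 on the same scalings. U2AF1 (-0.42) and RBM23 (-0.14) did not pass the limit under TMM, and both did, as lower, under upper quartile scaling and library totals only. The counts of U2AF1 are uncertain, since the reference holds a near-identical copy of it.

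BCLAF1 and THRAP3 are paralogs that act in RNA processing and in the response to DNA damage. BCLAF1 was at 539 and 485 CPM in control, 403 and 384 with SRPIN340, and 255, 290 and 246 in acidosis. It was the member that fell: the groups followed each other downwards without overlap, and the mean went from 512 ± 38.6 CPM (SD, n = 2) to 264 ± 23.1 (SD, n = 3). The log2 fold change was -0.96 (95% interval -1.14 to -0.78, edgeR adjusted p = 4.63e-06) under TMM and -1.53 under library totals only, and the direction held under every scaling tried. THRAP3 was at 264 and 253 CPM in control, 240 and 244 with SRPIN340, and 249, 233 and 228 in acidosis. Its log2 fold change was -0.13 (95% interval -0.27 to 0.02, edgeR adjusted p = 0.109), and it passed the limit as lower under upper quartile scaling (-0.29) and library totals only (-0.70). Within a library the mean count ratio of BCLAF1 to THRAP3 went from 1.98 (control) to 1.62 (SRPIN340) and 1.11 (acidosis). SNW1, which joins BCLAF1, THRAP3 and PNN in the SNARP complex, rose by 0.53 under TMM and reversed to -0.04, not past the limit, under library totals only.

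**Figure D3:**
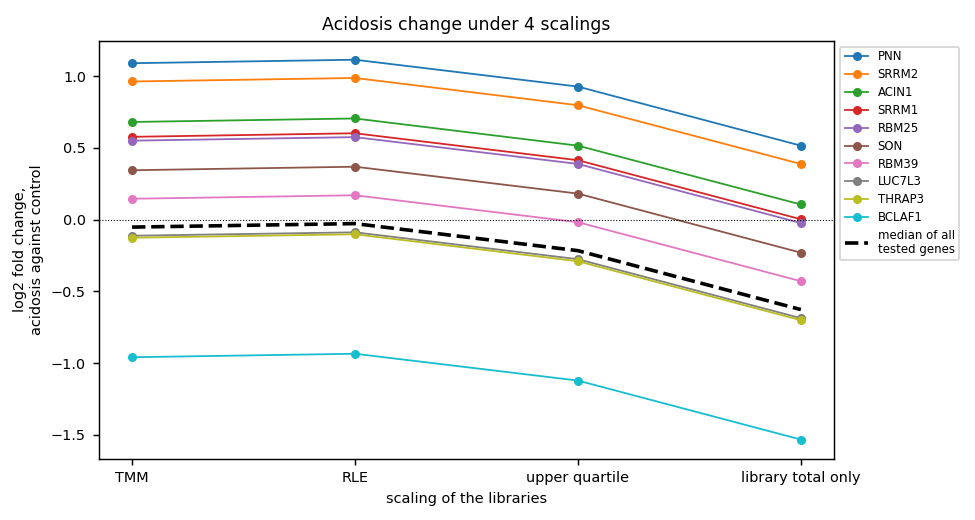
The y axis gives the log2 fold change of each gene in acidosis against control, the x axis 4 ways of scaling the libraries, and the dashed line is the median of all tested genes. All lines shift down together, the median from -0.05 under TMM to -0.63 under library totals only, so that SON and RBM25 go from higher to -0.23 and -0.02, while PNN and SRRM2 stay above 0 and BCLAF1 below it.

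The order of the genes by level changed in acidosis. Levels per kb of transcript (CPM per kb) allow genes to be compared. In control SRRM2 was highest at 103, followed by SON at 74.7, BCLAF1 at 68.3, SRRM1 at 64.0, THRAP3 at 58.6, ACIN1 at 49.9, PNN at 49.1, RBM25 at 37.7, LUC7L3 at 36.1 and RBM39 at 32.8. BCLAF1 and SRRM1, ACIN1 and PNN, and the lowest 3 did not differ from their neighbours by more than 1 SD. In acidosis SRRM2 reached 201 and PNN took the next place at 104, ahead of SRRM1 at 95.5 and SON at 94.8, which differed by less than 1 SD. ACIN1 stood at 79.9, RBM25 at 55.2 and THRAP3 at 53.7, the latter pair again within 1 SD. BCLAF1, near the top in control, was at 35.2 CPM per kb in acidosis, within 1 SD of RBM39 at 36.2 and of LUC7L3 at 33.4. The lengths are those of the canonical transcripts, and the isoforms in use were not measured.

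**Figure D4:**
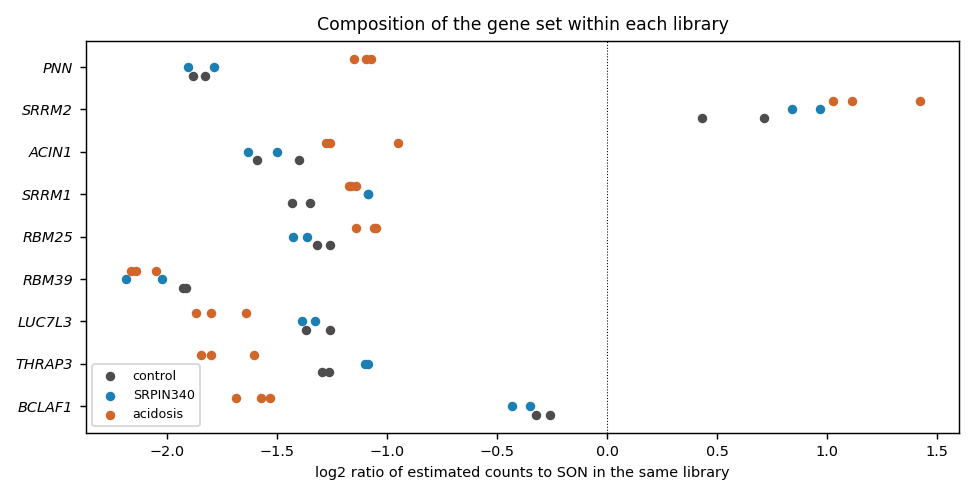
Each point is the log2 ratio of a gene's estimated count to that of SON in the same library (x axis), by gene (y axis) and group (colour). Relative to SON, PNN, SRRM2 and RBM25 lie to the right in all 3 acidosis libraries, and LUC7L3, THRAP3 and BCLAF1 lie to the left of both other groups.

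Relative to SON in the same library, a measure that no scaling alters, the make-up of the set changed. The count ratio of PNN to SON rose from 0.277 in control to 0.464 in acidosis, and that of SRRM2 to SON from 1.49 to 2.28. With SRPIN340 these ratios were 0.279 and 1.87, so that SRRM2 to SON lay between control and acidosis. The ratio of SRRM2 to SRRM1 went from 3.90 to 5.09. BCLAF1 to SON went from 0.816 to 0.331, the widest shift, and the 3 acidosis libraries did not overlap the others in any of these ratios. The 10 genes together took 0.427% and 0.430% of counts in control, 0.384% and 0.389% with SRPIN340, and 0.369% to 0.408% in acidosis.

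SRPIN340 changed little by the adjusted test, and what differed was lower. RBM39 was the member past the limit: 120 ± 9.16 CPM (SD, n = 2) against 166 ± 6.27 (SD, n = 2) in control, a log2 fold change of -0.46 (95% interval -0.65 to -0.28, edgeR adjusted p = 0.0280). That call was lost when any control or SRPIN340 sample was left out (adjusted p from 0.0912 to 0.272), while the value stayed between -0.54 and -0.39. Among all genes 1.53% were lower and 0.767% higher. No member was higher by edgeR, by DESeq2 or at an unadjusted p under 0.05 (0 of 10 each). Of all genes, 2.22% were higher by DESeq2 and 8.15% at that unadjusted p by edgeR. Beside shares this low, 0 of 10 says little about the members.

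The other members lay in a narrow band. In 8 of the 10 genes both SRPIN340 samples were below both control samples, as in 26.8% of all genes. At an unadjusted p under 0.05, 7 of 10 members were lower by edgeR, beside 9.48% of all genes. DESeq2 put 7 past its adjusted limit, beside 3.77% of all genes lower, with 330 genes higher and 561 lower in all, against 114 and 228 by edgeR. The median log2 fold change was -0.30 for the 10 genes and 0.00 for all. RBM25 was at -0.39 (edgeR adjusted p = 0.0577), BCLAF1 at -0.38 (0.0630), ACIN1 at -0.35 (0.0866) and LUC7L3 at -0.32 (0.0797). SON was at -0.28 (95% interval -0.43 to -0.13, edgeR adjusted p = 0.0665) and PNN at -0.27 (0.106). SRRM2 and SRRM1 were nearest to control, at 0.05 (95% interval -0.19 to 0.29) and 0.02 (-0.14 to 0.19), and THRAP3 was at -0.09 (-0.25 to 0.06). The groups of 2 samples leave intervals of this width.

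**Figure D5:**
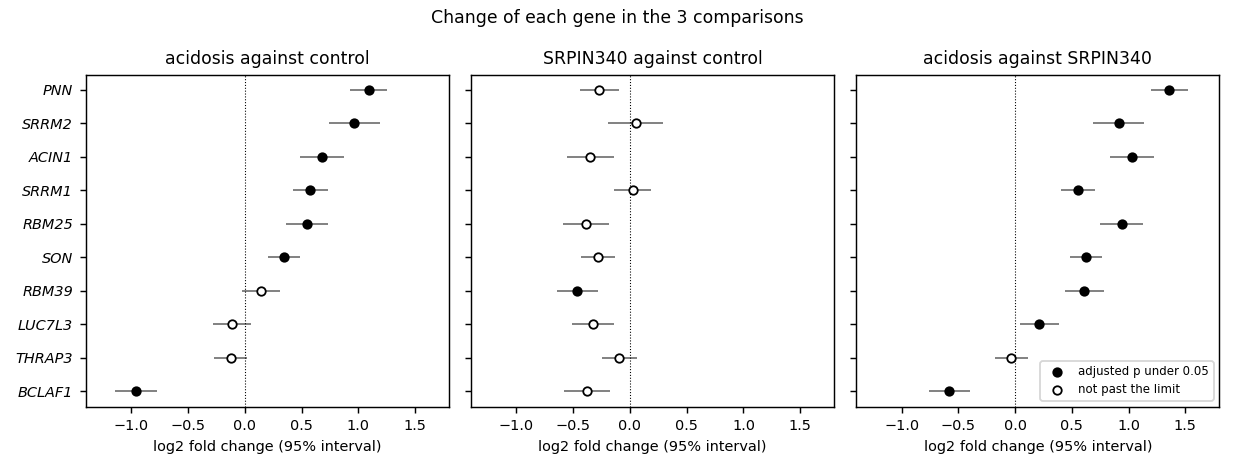
Points give the log2 fold change of each gene (x axis) in 3 comparisons under TMM, lines its 95% interval, and filled points an edgeR adjusted p under 0.05. With SRPIN340 the values run from -0.46 to 0.05 and RBM39 alone is filled, while in acidosis they run from -0.96 to 1.09; SON, RBM25 and RBM39 would reverse in the left panel, and SRRM1, RBM39 and LUC7L3 in the right panel, under library totals only.

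Set against SRPIN340 directly, acidosis had 8 members higher, 1 lower and 1 not past the limit under TMM, beside 32.8% of all genes higher and 35.0% lower. Under library totals only 4 were higher and 3 lower, beside 15.8% and 56.9% of all genes. The median under TMM was 0.62 for the 10 genes and -0.05 for all. This comparison shares its acidosis samples with that against control and its other samples with the SRPIN340 comparison. PNN was 2.57-fold higher in acidosis, with a log2 fold change of 1.36 (95% interval 1.20 to 1.52, edgeR adjusted p = 2.34e-07), and ACIN1 2.04-fold higher, at 1.03 (0.83 to 1.22, 4.34e-06). These 2 passed the fold limit as well, as did 14.9% of all genes on the higher side, and they kept their direction under library totals only (0.74 and 0.41). RBM25 (0.94), SRRM2 (0.91), SON (0.63) and RBM39 (0.61) also rose, as did SRRM1 (0.55), but under library totals only RBM25 was at 0.32, SRRM2 at 0.30 and SON at 0.01 and RBM39 and SRRM1 reversed to -0.0039 and -0.06. LUC7L3 was at 0.21 (adjusted p = 0.0310) and reversed to -0.40 under library totals only, and it missed the limit under upper quartile scaling (adjusted p = 0.552), with no filter (0.0671), and without SRPIN340 sample 1 (adjusted p = 0.195), SRPIN340 sample 2 (0.0820) or acidosis sample 1 (0.0860). BCLAF1 was lower in acidosis by either scaling, at -0.58 (edgeR adjusted p = 1.50e-04) and -1.19. THRAP3 was at -0.03 (95% interval -0.18 to 0.11) and passed the limit as lower under upper quartile scaling and library totals only.

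Beyond these complexes, other genes for RS-rich speckle proteins moved both ways in acidosis. Of 29 (such as PNISR, ARGLU1, NKTR, PPIG, CCNL1 and RSRC2), 15 rose and 11 fell under TMM, with a median of 0.29. Under library totals only 8 rose and 14 fell. Over all genes 32.5% rose and 34.2% fell under TMM, and 16.2% rose and 55.0% fell under library totals only. The counts of genes that fell were near those shares. The same shares are the background for the other lists of genes in acidosis. CCNL1, a cyclin of speckles, rose from 35.4 ± 1.15 CPM (SD, n = 2) to 242 ± 36.1 (SD, n = 3), at 2.77 on the log2 scale and 2.20 under library totals only. RSRC2 was at 2.44 and 1.87, SCAF11 at -1.01 and -1.59, and RSRC1 at -1.26 and -1.84. SON and SRRM2 lay inside the range of this wider list.

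The SR proteins bind RNA and move between speckles and splice sites. Of 14 genes, 3 rose and 6 fell under TMM, with a median of -0.23, and 0 rose and 13 fell under library totals only (1 rose and 9 fell under upper quartile scaling, 3 and 5 by DESeq2). SRSF3 fell from 479 ± 5.19 CPM (SD, n = 2) to 168 ± 7.18 (SD, n = 3), at -1.51 and -2.09 on the log2 scale, and SRSF6 was at -0.88 and -1.46. SRSF4 rose by 0.68 under TMM, but was at 0.11 under library totals only, and SRSF9 was at 0.31 and reversed to -0.27.

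Among 9 kinases of RS domains, 6 rose and 0 fell in acidosis under TMM (also 0 lower by DESeq2 and 0 at an unadjusted p under 0.05), while 2 rose and 3 fell under library totals only. CLK1 rose from 40.6 ± 1.42 CPM (SD, n = 2) to 184 ± 12.6 (SD, n = 3), at 2.18 and 1.60, and CLK3 was at 1.70 and 1.12. CLK4 (0.43) and DYRK3 (0.37) rose under TMM and reversed to -0.14 and -0.20 under library totals only. SRPK1 and SRPK2, which SRPIN340 inhibits, were at 0.05 (edgeR adjusted p = 0.522) and 0.55 (1.13e-04) in acidosis, with -0.52 and -0.03 under library totals only. With SRPIN340 itself they were at 0.16 (adjusted p = 0.280) and -0.08 (0.663).

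With SRPIN340 some genes of these lists passed the limit, beside 1.53% of all genes lower and 0.767% higher by edgeR. By DESeq2 3.77% of all genes were lower and 2.22% higher. At an unadjusted p under 0.05 by edgeR the shares were 9.48% and 8.15%. Lower were 1 of 7 junction complex partners, 0 of 6 U1 genes (4 at an unadjusted p under 0.05, 0 by DESeq2), 1 of 4 U2AF relatives, 2 of 29 other RS-rich genes, 3 of 14 SR proteins and 1 of 9 kinases, and 0 were higher, by edgeR or by DESeq2 (1, SRPK1, at an unadjusted p under 0.05). DESeq2 put more genes lower, at 2 of 4 U2AF relatives, 3 of 29 other RS-rich genes, 6 of 14 SR proteins and 2 of 9 kinases. Of the genes lower by edgeR, those named above were RBM8A at -0.42 (edgeR adjusted p = 0.0227), U2AF2 at -0.51 (0.0412), RSRC2 at -0.38 (0.0405), CLK4 at -0.67 (0.0405) and SRSF6 at -0.60 (0.00601). U2AF2 (adjusted p = 0.0530) and RSRC2 (0.0700) no longer passed under library totals only. The medians of these lists were between -0.44 and -0.04, beside 0.00 for all genes.

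The genes most like SON in pattern, by the root mean square distance of centred log2 CPM over the 7 samples among 10119 genes of at least 10 CPM on average, were HNRNPDL (0.0242), CSTF2T (0.0358) and BRIX1 (0.0438). HNRNPDL, an hnRNP protein, was at 0.33 in acidosis and -0.26 with SRPIN340, close to the 0.34 and -0.28 of SON. For SRRM2 they were KANSL1L (0.0426), NKX2-5 (0.0464) and RNF114 (0.0598), with log2 fold changes of 1.01, 0.92 and 0.86 in acidosis and 0.08, -0.01 and -0.02 with SRPIN340. With 7 samples in 3 groups, such likeness is mostly likeness of the group means.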

How the data were processed

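RNA-seq was analysed for 7 samples of HEK-293 cells. The authors trimmed reads with Trimmomatic 0.39 and Trim Galore 0.6.6, quantified transcripts with Salmon 1.5.1 on the Gencode GRCh38.p13 transcriptome and summed them with tximport (option not given in the sources used here). They deposited 1 estimated count per gene and sample, not normalized between samples. How sequencing replicates of a repeat were joined is not given there either.

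Rounding to whole numbers preceded the quasi-likelihood test of edgeR 4.0.16 (R 4.3.3), with TMM scaling, filterByExpr and all 7 samples in 1 fit. Standard errors were taken from the test statistic. DESeq2 1.42.0 was an alternative, as were RLE, upper quartile and total scaling, no filter, fits of 2 groups, a replicate block and leaving out each sample. Fits were tested on simulated data. Each member had at least 2059 counts in every library, and the SD between replicates was up to 11.3% of the mean.

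Samples were grouped by their titles. All 10 members are named. From lists with over 5 tested genes the 2 highest and 2 lowest past the limit in acidosis are named, and shorter lists whole. The mitochondrially encoded genes are an exception, given only as a share of counts. Some genes of these lists are not reported here and were left out of the list counts. Members and lists were chosen with earlier results of these data known. Gene identifiers of 19977 of 19978 rows matched GENCODE release 44. Coding windows and RS and SR pairs came from its canonical transcripts in place of a RefSeq protein table, with windows of 40 codons, by Python 3.11.15 and Biopython 1.88. Figures used matplotlib 3.10.9.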

Additional observations from a re-analysis of the deposited data

How the results depend on the processing

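Of 420 repeats of a member's log2 fold change under another setting, 377 kept direction and side of the limit, 20 came to pass it, 14 no longer passed and 9 reversed. Under library totals only these were SON (-0.23), RBM25 (-0.023) and RBM39 (-0.43) in acidosis against control, and SRRM1 (-0.062), RBM39 (-0.0039) and LUC7L3 (-0.40) against SRPIN340. The others, not past the limit there or under TMM with all samples, were RBM39 in acidosis against control under upper quartile scaling (-0.018) and SRRM2 with SRPIN340 without control sample 1 (-0.045) or SRPIN340 sample 2 (-0.021), the range over all samples left out in turn being -0.045 to 0.15. Under library totals only, 2 members rose and 5 fell against control (2413 and 8179 of all genes), and 4 rose and 3 fell against SRPIN340 (2349 and 8450). Under upper quartile scaling 3 fell against control and 2 against SRPIN340. Leaving out 1 sample gave 1 to 2 members lower in acidosis against control.

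For SRPIN340 against control, members lower numbered 7 by DESeq2 (all genes: 330 higher, 561 lower), 2 with no filter and 4 with only these groups fitted (236 and 368). Leaving out 1 sample gave 0 to 4 members, 4 to 207 genes higher and 10 to 319 lower, with 4 members lower without acidosis sample 2 and 0 without any control or SRPIN340 sample. The cause of these differences was not tested. With the replicate block, 0 members (13 genes higher, 38 lower) passed. Deviations of samples with the same number from their group means correlated between -0.285 and 0.125. With groups of 2 or 3 samples these values cannot decide whether the numbers pair the samples. Control and SRPIN340 samples 1 correlated at -0.112. A crossed pairing, added after the data were seen, gave 6 members lower, 662 genes higher and 797 lower. The block changed no other count of members by over 1.5 times, though LUC7L3 in acidosis against SRPIN340 then missed the limit (adjusted p = 0.0603). Groups hold 2 or 3 samples.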

Other observations

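SRRM3, a paralog of SRRM2 best known from neurons, was at 2.70 and 3.02 CPM in control, 4.42 and 3.91 with SRPIN340, and 1.72, 1.19 and 1.20 in acidosis. The groups did not overlap, and the log2 fold change in acidosis was -1.04 (edgeR adjusted p = 0.0130; -1.61 under library totals only), opposite in sign to those of SRRM1 and SRRM2 under TMM. SRRM4 did not pass the filter on low counts. U2AF1 was at 92.9 and 185 CPM in the SRPIN340 samples, a wider spread than in control (236 and 249) or acidosis (174, 203 and 170).

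The canonical transcripts of all 10 speckle scaffold genes, at 3537 to 9044 nt, were longer than the median tested gene (3388 nt). Across 14862 genes, which are not independent replicates and share the same libraries, Spearman's rho of length with the log2 fold change was -0.083 in acidosis and 0.119 with SRPIN340.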
